A study of Mus musculus with 8 samples.

Results

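The histone genes of sorted mouse pancreatic beta cells were compared between 4 Adar-knockout (KO) libraries and 4 Adar-heterozygote (Het) libraries. Members were the genes of the deposited table whose names begin with Hist1h to Hist4h, H2af, H3f3 or H1f, without names marked as pseudogenes by -ps, and whose normalized count averaged at least 10 over the 8 libraries. Of 77 names that matched, 56 passed this minimum, among 44343 genes in the table and 21498 that passed the same minimum. The members comprised 44 clustered genes, named Hist, and 12 replacement genes. The clustered genes held 6 genes of H1, 10 of H2A, 9 of H2B, 7 of H3 and 12 of H4, and the replacement genes held 3 of H1, 7 of H2A and 2 of H3. The mean over all 8 libraries chose the members, so a gene could pass through a high level in either group. Just inside the minimum lay Hist1h1b, with KO and Het means of 12.1 and 9.44, and just outside it lay Hist1h2ab, which averaged 9.6 over the 8 libraries.

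KO mice carried MipCreER, Adar floxed/floxed and R26R-EYFP. Het mice carried MipCreER, Adar floxed/+ and R26R-EYFP. All were 1 month old when they were given 2 tamoxifen doses of 8 mg, and cells were collected 7 days later. The insulin promoter of MipCreER drives a Cre recombinase that needs tamoxifen to act. Recombined cells gain yellow fluorescence from R26R-EYFP, which allowed their sorting from dissociated islets. The Het cells also carry 1 floxed Adar copy that the recombinase can inactivate, so they are not wild type. Adar encodes an enzyme that changes adenosine to inosine in double-stranded RNA. The labels do not state how many mice gave each library, and p-values thus reflect at most variation among libraries, which may be technical.

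Histones are the proteins around which DNA is wound: H2A, H2B, H3 and H4 form the core of the nucleosome and H1 binds the DNA between nucleosomes. The clustered genes are made mostly during DNA replication, and their mRNAs typically end in a stem-loop in place of a poly(A) tail. The replacement genes are expressed outside replication as well, are scattered in the genome and mostly give polyadenylated mRNAs. Adult beta cells divide rarely, but these mice were 1 month old at tamoxifen, and how often their cells divided was not measured. The library kit primes total RNA at random, per its general design, so that transcripts without a poly(A) tail are also read.

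In the annotation the stem-loop was more frequent among clustered than among replacement members, without a full separation. A search of the sense strand of annotated transcripts for the histone stem-loop, a 6-base stem that begins with GG and a 4-base loop that begins with TTT, found it in 79 of 55450 genes (0.142%). It was present in 30 of the 44 clustered members and in 1 of the 12 replacement members, H2afx. The transcripts of the other 14 clustered members held no match, which says only that these letters were absent from the annotated ends. The sequences below are shown because they belong to the members of highest level or largest change and show how the H4 stem differs from that of H1; the 16 bases of the stem-loop are in capitals, each with 5 bases on either side (mm10, GENCODE M21).
Hist1h1c, chr13:23739512-23739527, plus strand: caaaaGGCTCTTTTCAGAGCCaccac
Hist1h4d, chr13:23581950-23581965, plus strand: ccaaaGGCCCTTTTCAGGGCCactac
Hist1h4h, chr13:23531458-23531473, plus strand: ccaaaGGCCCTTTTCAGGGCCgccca
Hist1h4i, chr13:22040966-22040981, minus strand: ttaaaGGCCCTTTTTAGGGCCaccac
Hist1h4j, chr13:21735437-21735452, plus strand: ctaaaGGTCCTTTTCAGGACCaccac
H2afx, chr9:44335240-44335255, plus strand: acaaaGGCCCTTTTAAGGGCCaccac
The stem-loops found in H1, H2A, H2B and H3 clustered members used the stem shown for Hist1h1c. H4 genes used GGCCCT or, in Hist1h4j and Hist1h4b, GGTCCT as the first arm. The 1 replacement member with a stem-loop carried the GGCCCT arm.

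Promoters also differed between the kinds. RefSeq promoters (GRCm38.p6) were found for 38 clustered and 10 replacement members. In the 250 bases before the start, CCAAT on either strand occurred in 29 of 38 clustered members (76.3%) and in 5 of 10 replacement members, against 34.5% of 27025 genes. TATAAA, on either strand, occurred in 19 clustered members (50%) and 1 replacement member, against 12.97% of genes. The octamer ATTTGCAT, on either strand, occurred in 6 (15.8%) and 1, against 1.61%. Matches counted at any position in these bases. Neighbouring genes can share a match: the TATAAA and octamer of Hist1h2ae and Hist1h2bg are the same bases. The promoters of H3f3b and H3f3a are shown because both genes encode the same H3.3 protein and the ratio of their counts is given below; motif letters are in capitals, and no motif overlaps another.
H3f3b, chr11:116024505-116024754, minus strand: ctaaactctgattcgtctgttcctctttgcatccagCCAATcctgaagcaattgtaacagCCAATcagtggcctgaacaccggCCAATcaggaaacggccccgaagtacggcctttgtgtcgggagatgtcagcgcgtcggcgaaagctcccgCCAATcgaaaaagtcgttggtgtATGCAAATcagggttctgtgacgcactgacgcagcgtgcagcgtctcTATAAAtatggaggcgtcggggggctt
H3f3a, chr1:180813606-180813855, minus strand: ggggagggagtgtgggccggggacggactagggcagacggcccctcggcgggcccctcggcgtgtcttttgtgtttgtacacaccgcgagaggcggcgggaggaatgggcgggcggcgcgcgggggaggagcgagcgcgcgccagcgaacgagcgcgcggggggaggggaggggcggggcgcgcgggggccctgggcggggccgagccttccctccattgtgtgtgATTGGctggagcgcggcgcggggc
The H3f3b sequence held 4 CCAAT matches, 1 octamer on the other strand and 1 TATAAA match, and the H3f3a sequence held 1 CCAAT match on the other strand. The RefSeq start of H3f3b lies inside the longer gene that GENCODE annotates. Whether any match is a working site was not tested.

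Libraries of the same genotype stood apart from each other. They held 5.37 to 15.9 M reads. In log2 units relative to the mean library, the deposited level of the median gene, over 6697 genes averaging 200 or more, was 0.88 in KO 1, 0.96 in KO 2, −0.77 in KO 3, −0.56 in KO 4 and −0.46 to 0.22 in the Het libraries. The results below are therefore given under the deposited scaling and under TMM scaling, a trimmed mean of ratios, which moved the median of all genes by −0.21, and where it matters against KO 1 and KO 2 or KO 3 and KO 4 alone. By Xist and the Y-linked Ddx3y, KO 3 and KO 4 held female reads, Het 1 held male reads and the remaining libraries held reads of either sex. For Adar the normalized counts were 4030, 2365, 615 and 1343 in KO and 943, 1173, 1187 and 744 in Het. A whole-gene count does not measure the floxed part, so it does not check the labels. The 10 beta cell markers took 36778 and 42118 RPM (reads scaled to 1000000 per library) in KO 1 and KO 4, 81710 and 107144 in KO 2 and KO 3, and 93285 to 117739 in the Het libraries, and 0 of the 10 passed the test. Ins2 had 125891 to 835219 normalized counts in KO and 389199 to 799944 in Het. Marker sums of acinar, endothelial, myeloid, T, B and stromal cells were at most 44.9 RPM in KO and 65.3 in Het. Alpha cell markers summed to 158 to 305 RPM in KO and 159 to 256 in Het, and duct markers to 203 to 272 and 172 to 217. Delta cell markers had 50.6, 31.4, 128 and 107 RPM in KO 1 to KO 4 and 49.0 to 69.2 in Het, and PP cell markers 12.6, 11.03, 50.8 and 15.99 in KO and 8.97 to 22.7 in Het, so that KO 3 was highest in both. Of the markers tested, 1 of 5 myeloid and 1 of 3 duct markers were called lower, and 0 markers were at 0 in all libraries. The part of other cell types in the results was not tested. In these bulk samples a lower RNA level per cell and a lower share of cells cannot be told apart.

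Histone genes made up a small part of each library, and their share of reads was mostly larger in KO. The 12 replacement genes took 0.114%, 0.0889%, 0.102% and 0.106% of reads in KO 1 to KO 4, against 0.0835%, 0.0868%, 0.0746% and 0.0777% in Het 1 to Het 4. Every KO share lay above every Het share, but KO 2 (exact binomial 95% interval 0.0873% to 0.0906%) lay next to Het 2 (0.0846% to 0.0890%) and their intervals overlapped. The 44 clustered genes took 0.0911%, 0.0547%, 0.0945% and 0.0862% of reads in the KO libraries, against 0.0612%, 0.0678%, 0.0452% and 0.0486% in the Het libraries. Here KO 2 fell within the range of the Het libraries. Clustered over replacement reads gave 0.802, 0.614, 0.930 and 0.810 in KO and 0.733, 0.781, 0.606 and 0.625 in Het, so that the groups overlapped. Shares of reads also move with the most abundant genes, and the beta cell markers above took their lowest shares in KO 1 and KO 4. The intervals cover counting error only.

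**Figure D1:**
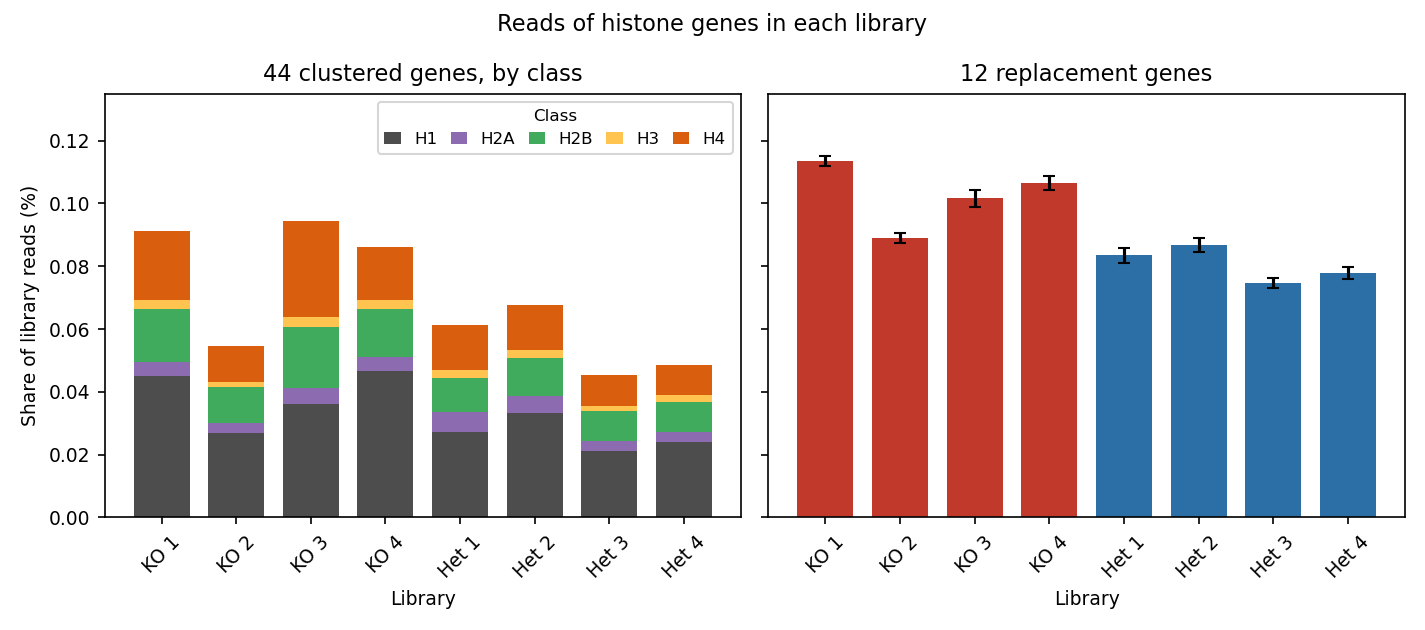
Share of library reads (%, vertical axis from 0) of the 44 clustered histone genes, stacked by class, and of the 12 replacement genes with exact binomial 95% intervals, in the 4 KO (left) and 4 Het libraries. Replacement genes take 0.0889% or more in each KO library and 0.0868% or less in each Het library, while for clustered genes KO 2 (0.0547%) lies among the Het libraries.

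Few members passed the test across all genes, while most clustered genes had a positive fold change. The test was limma on log2(count + 1) with an adjusted p under 0.05 over 21498 genes, of which it called 0.921% higher and 0.0233% lower in KO. Under the deposited scaling limma took the spread of most genes from genes of similar level. Its SE and p therefore hardly measure the spread of that gene among the libraries. Of the 44 clustered genes 1 was called higher, Hist1h4i, and 0 lower. Of the 12 replacement genes 0 were called in either direction, by limma, edgeR and DESeq2 alike. With TMM scaling, limma called 1 clustered gene higher and 0 lower, against 0.637% and 0.0372% of all genes. For edgeR the counts were 1 and 0, against 0.673% and 0.0343%, and for DESeq2 1 and 1, against 1.25% and 0.0178%. Among the 6697 genes of mean 200 or more, with their own TMM factors, limma called 6.03% higher and 4.24% lower. That set holds 5 of the 44 clustered genes, without Hist1h4i, and 7 of the 12 replacement genes, and 0 of these were called. Without adjustment, limma p was under 0.05 for 9 clustered genes above Het and 0 below, against 4.05% and 2.7% of all genes, and 0 replacement genes were higher and 1 lower. With TMM scaling these counts were 7 and 0 clustered genes (5.34% and 3.1% of all genes) and 0 and 2 replacement genes. By unadjusted DESeq2 p under 0.05, 12 clustered genes were above Het and 1 below, against 6.8% and 0.805% of all genes, and 2 and 0 replacement genes. Over the clustered genes the fold change was above 0 in 39 of 44, against 54.3% of all genes, with a median log2 fold change of 0.56 against 0.05. With TMM scaling it was above 0 in 35 of 44, against 37.0% of all genes, with a median of 0.35 against −0.16. Over the replacement genes it was above 0 in 8 of 12 with a median of 0.13, and with TMM scaling in 4 of 12 with a median of −0.08. Clustered genes share sequence, so they are not independent observations. Every KO library lay above every Het library in 1 of 44 clustered genes by deposited count, 4 with TMM scaling and 5 in RPM, against 2.19%, 3.69% and 6.8% of all genes. Among the 12 replacement genes this held for 0, 1 and 2. Every KO library lay below every Het library in 0 clustered genes on these scales and in 0, 0 and 2 replacement genes, H2afx and H2afy, against 0.893%, 1.7% and 2.38% of all genes.

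The positive values of the clustered genes were largest in KO 1 and, under the deposited scaling, KO 2. Relative to the Het mean, the median clustered gene stood at 1.42, 0.80, 0.20 and −0.03 log2 units in KO 1 to KO 4, with Het libraries between −0.46 and 0.20. With TMM scaling these medians were 0.84, 0.11, 0.44 and 0.15 in KO and −0.26 to 0.14 in Het, so that KO 2 then lay within the Het range. KO 1 held the highest value of 31 of the 44 clustered genes, and of 6119 of all 21498 genes. Against KO 1 and KO 2 only, 27 clustered genes were called higher and 0 lower, with a median of 1.01, but there 45.5% of all genes were called higher and 16.1% lower, with a median of 0.56. Against KO 3 and KO 4 only, 1 clustered gene was called higher, Hist1h4i, and 0 lower, with a median of 0.03, against 1.27% and 7.45% of all genes and a median of −0.16. With TMM scaling the clustered medians were 0.38 and 0.24 in these comparisons, against −0.08 and 0.05 for all genes.

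**Figure D2:**
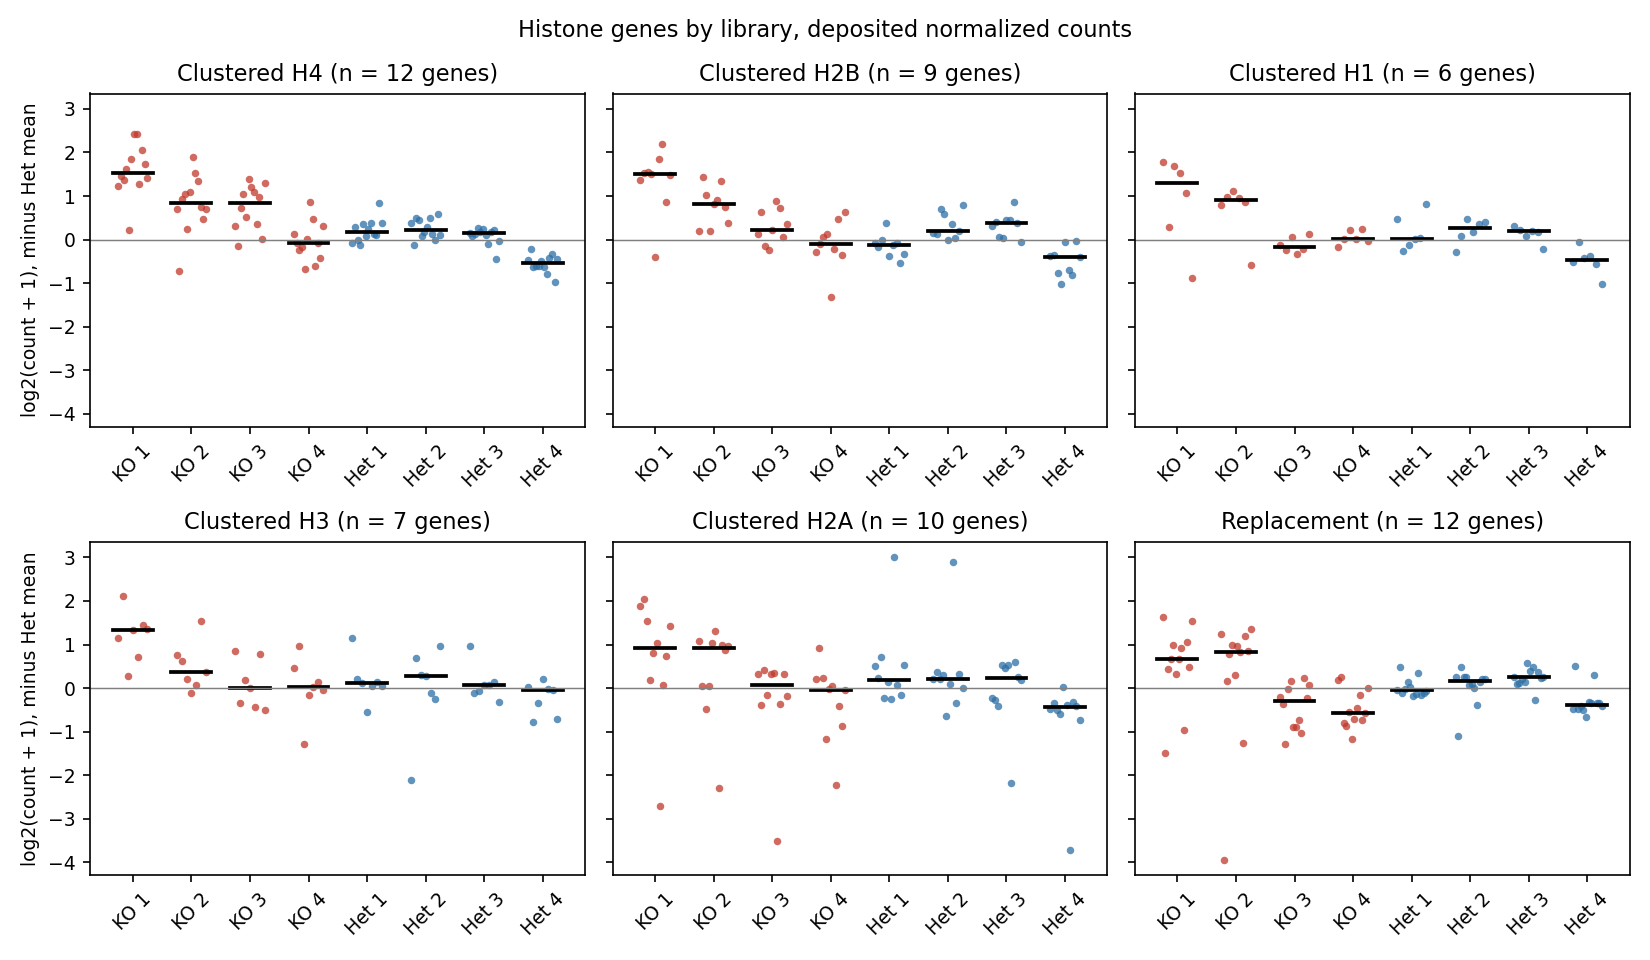
Each point is 1 histone gene in 1 library, as log2(normalized count + 1) minus its mean over the Het libraries (vertical axis); black bars are medians, KO libraries (red) stand left of Het libraries (blue), and panels are the 5 clustered classes and the replacement genes. KO 1 has the highest median in each clustered class except H2A, where KO 2 is as high, and KO 4 lies near the Het level in every clustered class.

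Histone H4 genes stood highest among the clustered classes. H4 is the core histone whose tail carries much of the acetylation linked to open chromatin, and the H4 genes of the mouse encode the same protein. All 12 H4 members had positive fold changes under the deposited scaling, with a median of 0.79, and 10 of 12 with TMM scaling, with a median of 0.57. The other 32 clustered genes had medians of 0.51 and 0.30. At an unadjusted limma p under 0.05, 5 of the 12 H4 genes were higher under either scaling, against 4.05% of all genes and 5.34% with TMM scaling. Per library, the median H4 gene stood at 1.54, 0.84, 0.85 and −0.07 log2 units in KO 1 to KO 4, with Het libraries between −0.55 and 0.23. With TMM scaling it stood at 0.95, 0.13, 1.09 and 0.11 in KO, with Het libraries between −0.34 and 0.24, so that KO 3 was then highest and KO 2 and KO 4 lay within the Het range. H4 reads over the reads of the other clustered genes were 0.317, 0.271, 0.481 and 0.244 in KO and 0.303, 0.272, 0.270 and 0.248 in Het. KO 3 alone stood out by that measure, and the other KO libraries lay near the Het values. KO 3 also had the highest mitochondrial share of reads, 17.4%, against 7.23% to 10.4% in the other KO libraries and 6.90% to 8.35% in Het, and its part in the H4 values was not tested.

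Hist1h4i (ENSMUSG00000060639, 1 exon, protein-coding, chromosome 13, 22040636 to 22041362, minus strand, mm10) was the histone gene called higher in KO. Counts on the deposited scale were 199.9, 138, 86.0 and 67.9 in KO 1 to KO 4 and 43.6, 45.01, 39.4 and 23.5 in Het 1 to Het 4. All KO libraries lay above all Het libraries, also with TMM scaling and in RPM. The log2 fold change was 1.59 ± 0.40 (SE, limma adjusted p = 0.011). It was 1.38 ± 0.26 with TMM scaling (limma adjusted p = 0.014), 1.38 by edgeR (adjusted p = 0.019) and 1.71 by DESeq2 (adjusted p = 0.011). By exact permutation, two-sided, p was 0.0286, the smallest that 70 arrangements of the libraries allow. Groups that do not overlap always give this p. Against KO 3 and KO 4 only it was called higher (1.04, limma adjusted p = 0.019), as were 1.27% of all genes. Against KO 1 and KO 2 only it was also called (2.15, limma adjusted p = 4.28e-10), but so were 45.5% of all genes. These p-values do not cover the spread among all KO libraries. The limma call was lost without KO 1 (1.32, adjusted p = 0.163), when any 1 of Het 1 to Het 4 was left out (1.38 to 1.69, adjusted p = 0.051 to 0.286) and without trend or robust settings (adjusted p = 0.154). With TMM scaling it was lost without KO 1 (1.23, adjusted p = 0.104) or Het 4 (1.24, adjusted p = 0.051). Of its 50-base windows 71.1% occurred in no other annotated gene, and the rest were shared mostly with Hist1h4n.

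In Hist1h4j, Hist1h4h, Hist1h4d, Hist1h4c, Hist4h4 and Hist1h4n KO 1 was highest by deposited count and KO 4 lay within the Het range. Hist1h4j, named after its values were seen, had 234, 126, 92.6 and 59.5 in KO and 56.4, 61.3, 40.3 and 24.3 in Het. KO 4 lay just below Het 2 there, and the log2 fold change was 1.37 ± 0.40 (limma adjusted p = 0.067, and 0.132 with TMM scaling). It passed the test without KO 3 or without KO 4 (limma adjusted p = 0.018 and 0.0060). Hist1h4h had 349, 208, 255 and 97.0 in KO and 102, 109, 115 and 68.1 in Het, a log2 fold change of 1.08 ± 0.44 (limma adjusted p = 0.477). KO 4 again lay among the Het libraries, though with TMM scaling the groups of Hist1h4h and of Hist1h4j did not overlap. Hist1h4d, the H4 gene of highest level, had 1141, 769, 769 and 332 in KO and 339, 511, 446 and 245 in Het (0.89 ± 0.53, limma adjusted p = 0.835). Hist1h4c had a log2 fold change of 0.69 ± 0.45. Hist4h4, the only clustered member on chromosome 6, where H2afj and H1fx also lie, had 109, 66.0, 101.5 and 50.01 in KO and 52.5, 43.8, 39.4 and 29.2 in Het (0.93 ± 0.40, limma adjusted p = 0.535). Hist1h4n had 96.8, 38.8, 45.2 and 21.4 in KO and 24.3, 22.5, 26.6 and 17.8 in Het (0.93 ± 0.40, limma adjusted p = 0.552). The smallest log2 fold changes were 0.13 in Hist1h4b and 0.08 in Hist1h4f, which turned to −0.08 and −0.12 with TMM scaling. Hist4h4, Hist1h4n, Hist1h4b and Hist1h4f were also named after their values were seen. The 50-base windows of these genes are unique to them to very different degrees, from 14.4% in Hist1h4n to 99.0% in Hist2h4, and how shared reads were counted is not given in the sources used here.

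**Figure D3:**
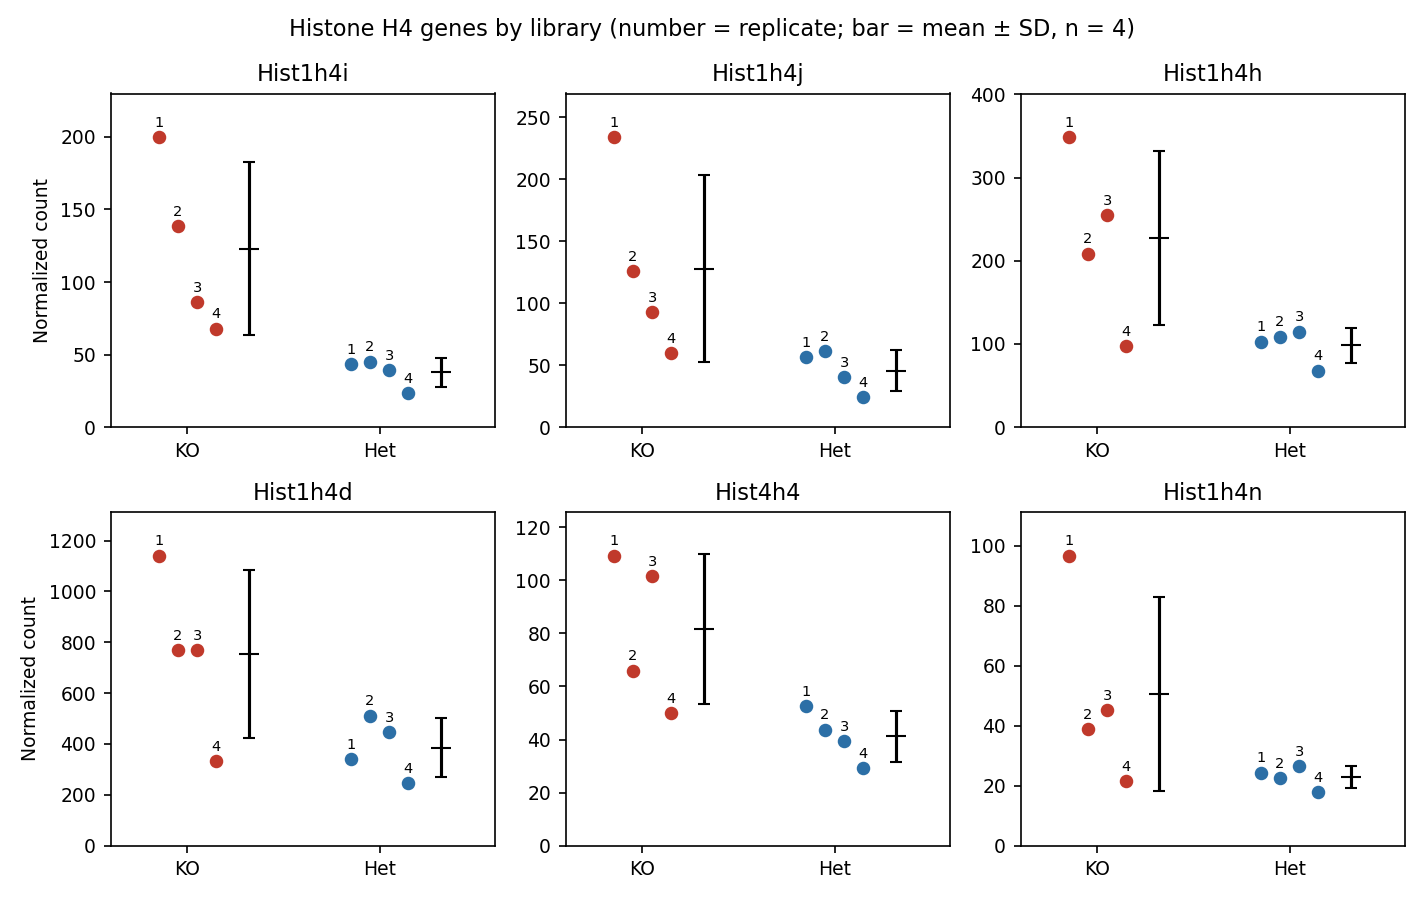
Normalized counts (vertical axes from 0) of 6 H4 genes in the KO (left, red) and Het (right, blue) libraries; digits are replicate numbers and the black bars give mean ± SD of 4 libraries. In Hist1h4i the lowest KO library (67.9) lies above the highest Het library (45.01), and in the other 5 genes KO 4 lies within the Het range.

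Linker histones of the clusters were led by Hist1h1c, which encodes H1.2 and had the highest level of the clustered genes per length. It averaged 1970 normalized counts per kb of exon in KO and 1066 in Het, and took 30.01% to 40.7% of the clustered reads in KO and 32.1% to 37.8% in Het. Its count was 5192, 3523, 1680 and 1896 in KO and 1491, 2238, 1720 and 1206 in Het. KO 1 and KO 2 lay above all Het libraries, and KO 3 and KO 4 within their range. The log2 fold change was 0.77 ± 0.61 (limma adjusted p = 0.910). Hist1h1e, of the protein H1.4, had 0.49 ± 0.52 and Hist1h1d, of H1.3, had 0.54 ± 0.44, and the KO and Het ranges of both overlapped. Hist1h1t, the H1 known from testis, was the 1 clustered H1 gene with a negative value, −0.34 ± 0.49, at means of 11.3 ± 3.87 in KO and 15.7 ± 8.29 in Het (SD, n = 4 each). The median over the 6 H1 genes was 0.51, and 0.30 with TMM scaling.

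Of the 9 H2B genes 8 had positive fold changes under both scalings, with medians of 0.63 and 0.41, and 0 were called by limma, edgeR or DESeq2. Hist1h2bc, the H2B gene of highest level, had 1401, 1303, 756 and 454 in KO and 430, 526, 638 and 379 in Het, a log2 fold change of 0.88 ± 0.54 (limma adjusted p = 0.851). Its RPM values did not overlap between the groups, while its normalized count in KO 4 lay among the Het libraries. Hist1h2bn had the largest fold change of the class, 1.18 ± 0.43 (limma adjusted p = 0.322), with 59.2, 32.4, 21.0 and 17.3 in KO and 11.5, 12.5, 23.1 and 6.48 in Het. KO 3 and KO 4 lay below Het 3, and 13.6% of the 50-base windows of Hist1h2bn are its own. Hist1h2be had 0.63 ± 0.46 and Hist1h2bg 0.40 ± 0.43, and KO 1 held the highest value of both. Hist1h2be shares exons on the same strand with Hist1h1e, so the counts of both are uncertain. Hist1h2bh was lowest, at −0.17 ± 0.42.

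Of the 10 clustered H2A genes 8 had positive fold changes, with a median of 0.48, and 7 with TMM scaling, with a median of 0.28. Hist1h2ac had 171, 97.1, 57.4 and 53.0 in KO and 65.3, 52.5, 38.6 and 32.4 in Het, a log2 fold change of 0.88 ± 0.40 (limma adjusted p = 0.628). KO 3 and KO 4 fell within the Het range. Hist2h2ac had 0.27 ± 0.41 and Hist3h2a 0.54 ± 0.40, with overlapping groups. Hist3h2a overlaps exons of Trim17 on the same strand, so its count is uncertain. The remaining H2A members other than Hist1h2al lay between −0.27 and 0.68.

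Hist1h2al behaved unlike any other member. It had normalized counts of 2.69, 3.88, 1.10 and 4.17 in KO and 191, 178, 4.29 and 0.81 in Het. Het 1 and Het 2 alone carried it, and Het 3 and Het 4 were as low as KO. Its log2 fold change stood at −2.68 ± 1.76 (limma adjusted p = 0.903, and 0.597 with TMM scaling). DESeq2 called it lower (−4.97, adjusted p = 0.045), as did limma without Het 4 (−3.92, adjusted p = 7.49e-08), although the Het libraries were split. It is annotated as a processed pseudogene of 339 bases on chromosome 13 (51202727 to 51203065, minus strand), apart from the other Hist1 members of that chromosome, which lie between 21716422 and 23764406. Only 32.4% of its 50-base windows are its own, and the rest occur in the H2A genes of the Hist2 cluster and in Gm20634. Without it the clustered genes took 0.0586% and 0.0658% of reads in Het 1 and Het 2, in place of 0.0612% and 0.0678%.

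The 7 clustered H3 genes had the lowest median of the clustered classes, 0.30, and 0.09 with TMM scaling, and 6 of 7 had positive fold changes. H3 tails carry the methyl marks that label active and silent chromatin. Hist2h3b had the largest fold change, 0.98 ± 0.48 (limma adjusted p = 0.689), with 26.9, 28.5, 16.5 and 10.1 in KO and 10.2, 7.501, 10.3 and 8.91 in Het. KO 4 lay just below 2 of the Het libraries, and with TMM scaling the groups did not overlap. Hist1h3d had 133, 46.6, 23.2 and 58.9 in KO and 34.6, 48.8, 27.4 and 17.0 in Het (0.84 ± 0.40, limma adjusted p = 0.661), where KO 1 stood far above the rest. Hist1h3e, the H3 gene of highest mean, had a log2 fold change of −0.16 ± 0.41, with 112, 107, 105 and 37.5 in KO and 99.9, 114, 89.1 and 72.9 in Het. KO 4 lay below all other libraries. Only 20.3% of the 50-base windows of Hist2h3b and 26.6% of those of Hist1h3e are their own. Hist1h3f had 0.27 ± 0.44, with 40.3 in KO 1 and 10.2 to 18.8 in the other 7 libraries.

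**Figure D4:**
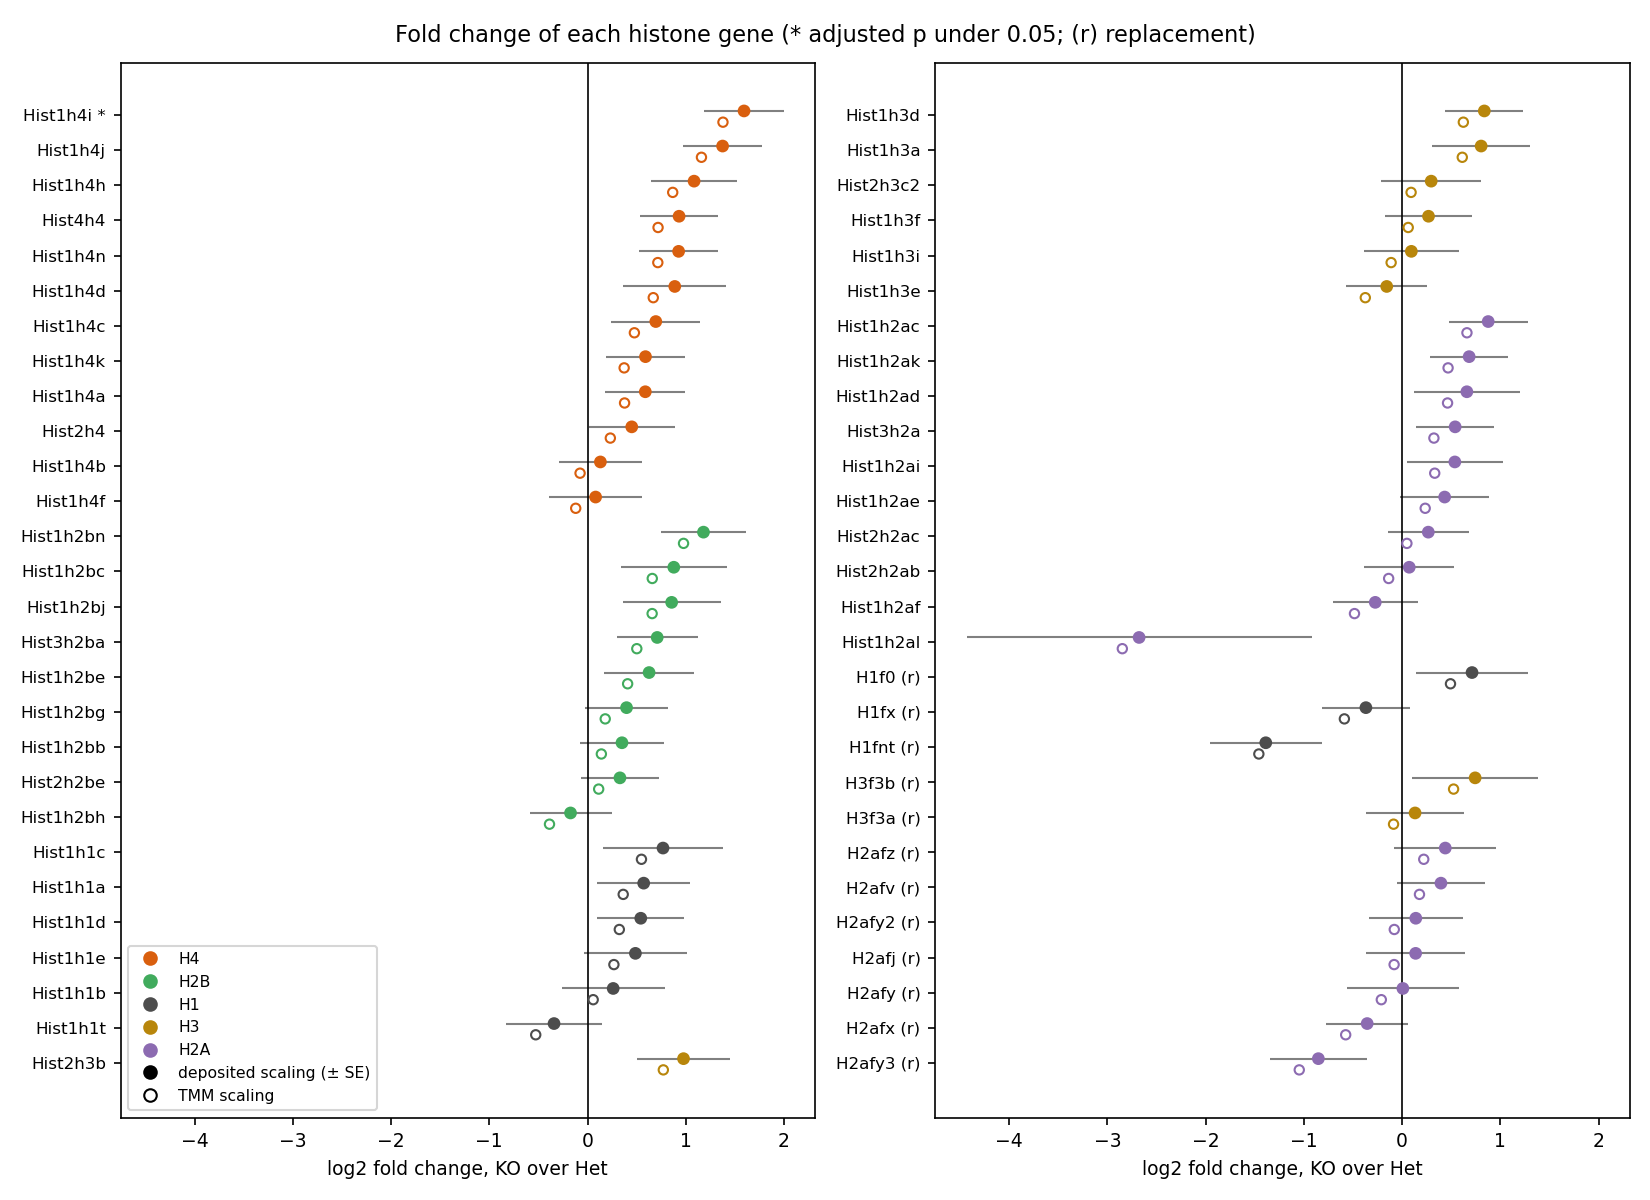
log2 fold change of KO over Het (horizontal axis) for each of the 56 histone genes, ordered by class; filled points with SE bars use the deposited scaling, open points TMM scaling, and colors give the class. All 12 H4 genes lie right of 0 under the deposited scaling and 10 of 12 with TMM scaling, and Hist1h4i is the gene with an adjusted p under 0.05.

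The clustered genes were also described by place and by annotated end. They lie in 6 places: 6 genes of Hist2 on chromosome 3 with a median log2 fold change of 0.31, Hist4h4 on chromosome 6, 2 genes of Hist3 on chromosome 11 with 0.62, 10 and 24 genes in 2 stretches of Hist1 on chromosome 13 with 0.77 and 0.56, and Hist1h2al. The median was 0.54 in the 21 genes whose annotated transcript runs at least 100 bases past the stem-loop, 0.66 in the 9 genes that end sooner and 0.55 in the 14 genes without an annotated stem-loop. The first kind took 72.3% to 80.3% of the clustered reads in KO and 73.6% to 78.5% in Het. The second took 5.11% to 8.83% in KO and 5.10% to 6.64% in Het. Genes with fewer than 50% windows of their own (14 genes) and with at least 50% (30 genes) both had a median of 0.56. These groupings were made after the data were seen and are given without a test.

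Replacement H3 was led by H3f3b. H3f3a and H3f3b both encode H3.3, which is placed at active genes and elsewhere independent of replication. H3f3b (ENSMUSG00000016559, chromosome 11, 116021912 to 116027962, minus strand) had 8944, 7792, 3223 and 3066 in KO and 2925, 3525, 3677 and 2315 in Het. KO 1 and KO 2 lay above all Het libraries and KO 3 and KO 4 within their range, and the log2 fold change was 0.74 ± 0.64 (limma adjusted p = 0.918). With TMM scaling the groups did not overlap, and the log2 fold change was 0.52 (limma adjusted p = 0.668). H3f3a, which overlaps H3f3aos on the other strand, had 421, 541, 258 and 203 in KO and 278, 349, 357 and 240 in Het, a log2 fold change of 0.13 ± 0.50 that was −0.09 with TMM scaling. H3f3b made up 55.3%, 52.2%, 53.6% and 53.3% of the replacement reads in KO and 46.1%, 46.2%, 44.9% and 45.4% in Het, without overlap.

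The replacement H1 genes had fold changes of both signs, and 0 of 3 were called by limma, edgeR or DESeq2. H1f0 encodes H1.0, the linker histone that accumulates in cells that have stopped dividing. It had 2668, 2067, 752 and 982 in KO and 846, 1030, 1040 and 625 in Het (0.71 ± 0.57, limma adjusted p = 0.913). H1fx, which encodes H1.10, had 251, 208, 76.1 and 105 in KO and 172, 260, 199.7 and 132 in Het (−0.37 ± 0.45, limma adjusted p = 0.951). Both ranges overlapped between the groups by normalized count, while in RPM every KO value of H1f0 lay above every Het value. Against KO 3 and KO 4 only, limma called H1fx lower (−1.04, adjusted p = 0.011), as it did 7.45% of all genes, while against KO 1 and KO 2 only its log2 fold change was 0.30. H1fnt, known from developing sperm, was near the detection limit, at 4.48, 0, 11.03 and 17.3 in KO and 20.5, 6.25, 15.4 and 21.1 in Het (−1.39 ± 0.57, unadjusted p = 0.014 and adjusted p = 0.482 by limma).

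Replacement H2A genes showed no called change under limma, edgeR or DESeq2. H2afz and H2afv encode the H2A.Z variants found around gene starts. H2afz had 800.4, 872, 448 and 230 in KO and 343, 419, 493 and 299.8 in Het (0.44 ± 0.52), and H2afv had a log2 fold change of 0.39 ± 0.45. H2afx, whose protein H2A.X is phosphorylated at DNA breaks, had 141, 140, 60.7 and 49.4 in KO and 114, 119, 168 and 70.5 in Het (−0.36 ± 0.42). KO 3 and KO 4 lay below all Het libraries and limma called H2afx lower against them alone (−1.03, adjusted p = 0.012), as it did 7.45% of all genes, while KO 1 and KO 2 lay within the Het range. H2afy and H2afy2, of the large macroH2A proteins, had 0.01 ± 0.57 and 0.14 ± 0.48, and H2afj had 0.14 ± 0.50. With TMM scaling these 3 turned to −0.21, −0.08 and −0.08. H2afy3, annotated as a processed pseudogene on the strand opposite Pvt1, had −0.85 ± 0.49 at means of 9.29 ± 3.79 in KO and 17.3 ± 4.83 in Het (SD, n = 4 each).

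Ratios of replacement genes within a library do not depend on scaling. Some separated the groups where the single genes overlapped by normalized count. In RPM, H1f0 and H3f3b alone already lay higher in every KO library and H2afx lower, and with TMM scaling H3f3b lay higher. The ratios were computed after the data were seen. H3f3b over H3f3a was 21.2, 14.4, 12.5 and 15.1 in KO and 10.5, 10.1, 10.3 and 9.65 in Het, a mean of 15.8 ± 3.78 against 10.1 ± 0.37 (SD, n = 4 each). H1f0 over H1fx was 10.6, 9.92, 9.88 and 9.32 in KO and 4.93, 3.96, 5.21 and 4.74 in Het, a mean of 9.94 ± 0.54 against 4.71 ± 0.53. H2afz over H2afx was 5.69, 6.24, 7.38 and 4.65 in KO and 3.01, 3.53, 2.93 and 4.25 in Het. In these 3 ratios every KO library lay above every Het library, including KO 3 and KO 4. H2afz over H2afv overlapped between the groups, with 2.59 to 3.37 in KO and 2.39 to 3.44 in Het. Of 45 pairs among 10 replacement genes with a mean of at least 100, 15 did not overlap between the groups (33.3%), against 20.2% of the pairs of all genes at that mean. Pairs that share a gene are not independent. By exact permutation, two-sided, p was 0.0286 for each of the 15, the smallest possible. Groups that do not overlap always give this p, so it only restates how the 15 were picked. After Benjamini-Hochberg adjustment over the 45 pairs it was 0.0857, so that none passed 0.05.

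**Figure D5:**
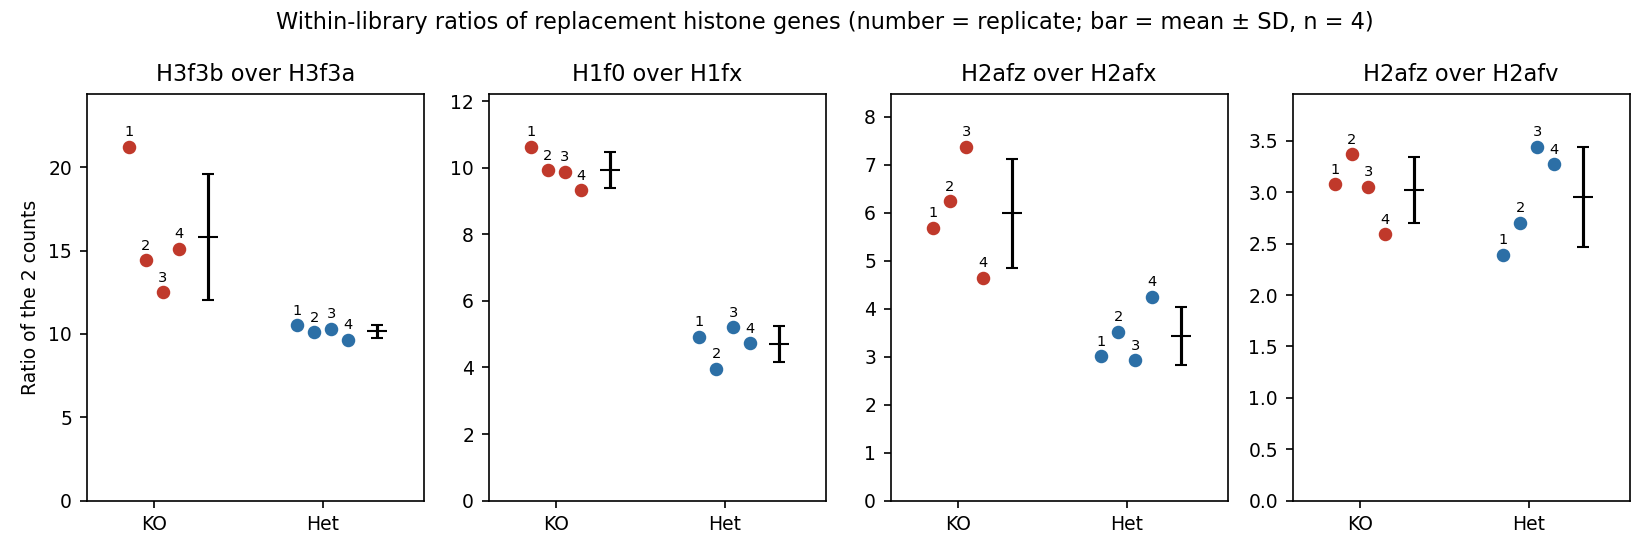
Ratio of the counts of 2 replacement histone genes within each library (vertical axes from 0), KO (left, red) and Het (right, blue); digits are replicate numbers and the black bars give mean ± SD of 4 libraries. The lowest KO ratio lies above the highest Het ratio for H3f3b over H3f3a (12.5 and 10.5), H1f0 over H1fx (9.32 and 5.21) and H2afz over H2afx (4.65 and 4.25), but not for H2afz over H2afv.

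Genes that act on histone mRNA and histone proteins were set beside these values. Over all genes the median was 0.05, and −0.16 with TMM scaling. Of all genes limma called 0.921% higher. At an unadjusted p under 0.05, 4.05% of all genes were higher by limma, 5.34% with TMM scaling and 6.8% by DESeq2. Of 24 tested genes of histone mRNA 3′ processing and turnover, 0 were called (limma, edgeR and DESeq2), with a median of 0.33, and 0.11 with TMM scaling. At an unadjusted p under 0.05, 1 was higher by limma, 3 with TMM scaling and 3 by DESeq2. Lsm10, part of the U7 particle that cuts histone mRNA, had 1.07 ± 0.40 (limma adjusted p = 0.348), Lsm1, of the decay machinery, 0.79 ± 0.42 and Npat, the activator of clustered histone genes, 0.83 ± 0.51. Npat had 1197, 691, 219 and 339 in KO and 232, 318, 345 and 242 in Het. Of 32 histone chaperone and deposition genes 0 were called (limma, edgeR and DESeq2), with medians of 0.33 and 0.11. At an unadjusted p under 0.05, 1 was higher by limma, 4 with TMM scaling and 5 by DESeq2. Asf1a, which carries H3 with H4, had 253, 227, 86.0 and 100.6 in KO and 56.4, 67.5, 84.0 and 64.8 in Het, without overlap (1.13 ± 0.42, limma adjusted p = 0.332, and 0.070 with TMM scaling). Daxx, a chaperone of H3.3, had 0.98 ± 0.52, and Hat1, which acetylates new H4, 0.73 ± 0.44.

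Genes of S phase and proliferation did not share the positive values. Of 38 tested genes, from a list of 39, 1 was called higher and 0 lower by limma, against 0.921% and 0.0233% of all genes. The median was −0.27, against 0.05 for all genes, and with TMM scaling −0.49, against −0.16. Positive fold changes were found in 14, against 54.3% of all genes. The KO libraries differed: the 39 genes summed to 269, 219, 333 and 403 RPM in KO 1 to KO 4 and to 280 to 356 in Het. The called gene was Ccne1, the cyclin E1 that drives entry into S phase, with 100.4, 71.2, 36.4 and 46.4 in KO and 29.5, 15.002, 20.6 and 11.3 in Het (1.66 ± 0.40, limma adjusted p = 0.0058). It passed by DESeq2 (adjusted p = 0.019) but not with TMM scaling (limma adjusted p = 0.112) or by edgeR (adjusted p = 0.128). Tk1, thymidine kinase, had −0.98 ± 0.42 and Mcm7, of the replicative helicase, 0.84 ± 0.42, neither called. Cenpa, the H3 variant of centromeres, lies outside the name rule and had −0.63 ± 0.43.

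Of the 21 name-matched genes under the minimum, 18 were clustered and 3 were replacement genes, and the ranges of the groups overlapped in all 21 by normalized count. Without the minimum, 62 clustered genes had a median of 0.44 with 50 above 0, and 15 replacement genes had a median of 0.01 with 8 above 0, against −0.05 for all genes.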

How the data were processed

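RNA of sorted YFP-positive beta cells was sequenced in 4 KO and 4 Het libraries made with a stranded total RNA kit for low input, per the labels. Per the submitters' processing notes, STAR 2.7.3a, HTSeq, DESeq2 1.28.1, UMI-tools, FastQC 0.11.8 and mm10 were used, with no order or settings given. The deposited table holds counts divided by size factors, a normalized signal per gene; in each library 100% of values were whole multiples of 1 step within 0.001 of a step, so whole reads were recovered (5.37 to 15.9 M per library). The size factors did not equalize the libraries, and totals of normalized counts differed up to 3.11-fold. Members and gene lists were chosen with earlier results of these data known. Genes averaging 10 or more were tested as log2(value + 1) with limma 3.58.1 (trend and robust eBayes, Benjamini-Hochberg over 21498 genes). This fit moderated the variances strongly, with a median of 128988 degrees of freedom against 17.3 with TMM scaling. For most genes the variance under the deposited scaling was thus that of genes of similar level, in place of their own. edgeR 4.0.16 (quasi-likelihood) and DESeq2 1.42.0 were run on recovered reads, with TMM and other scalings as alternatives. The fits were also run on simulated counts. Those lacked the offsets between libraries of the same genotype, so they cannot show how the fits behave on these data. Single values were tested by exact permutation, and shares have exact Clopper-Pearson 95% intervals that cover counting error only. Named members were those called, in each clustered class the 3 of highest mean and those with the largest positive and negative fold change, every replacement gene, and of each list the 3 of smallest p. Sequences came from RefSeq (GRCm38.p6 promoters) and the mm10 reference with GENCODE M21.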

Additional observations from a re-analysis of the deposited data

Results flagged for a closer look

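Of 92 groups of 4 libraries checked, 5 held a library far from the others, and chance flags about 1 group in 20. Hist1h2bg had a normalized count of 272 in KO 1, against 81.6 to 110 in the other KO libraries. Hist1h3f had 40.3 in KO 1, against 13.7 to 15.4 in the other KO libraries. Hist1h3e had 37.5 in KO 4, against 105 to 112 in the other KO libraries. Hat1, the acetyltransferase of new H4, had 155 in Het 3, against 89.7 to 98.0 in the other Het libraries. Tk1, the thymidine kinase, had 57.6 in Het 1, against 24.9 to 27.5 in the other Het libraries.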

How the results depend on the processing

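Of the values for single genes, 818 kept direction and side of the threshold, 81 newly passed it (40 genes), 13 no longer passed it (2 genes) and 53 changed sign (20 genes). Of the values for counts, medians and sums, 137 stayed close and 59 moved; the causes were not tested.

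Leaving out 1 library gave 105 to 337 genes higher and 1 to 45 lower, 0 to 2 clustered genes higher and 0 to 1 lower, and no replacement gene (0 in either direction). The clustered median was then 0.27 to 0.73 and the replacement median −0.10 to 0.35. Over all genes, 198 were higher and 5 lower. The count lower was 2 at a minimum mean of 50, 8 with TMM scaling, 18 in RPM, 8 by edgeR and 3 by DESeq2. At a minimum mean of 200 with its TMM factors, 404 genes were higher and 284 lower, and of the 5 clustered genes left, which do not include Hist1h4i, 0 were higher. Without trend or robust settings 127 genes were higher, 1 lower and 0 clustered genes higher. DESeq2 called 1 clustered gene lower.

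Against KO 1 and KO 2 only, 9780 genes were higher and 3458 lower, 27 clustered genes higher, 8 replacement genes higher and 2 lower, and the replacement median was 0.77. With TMM scaling these were 4058 and 6040 genes, 11 clustered genes higher and 1 lower, and 3 replacement genes higher and 2 lower. Against KO 3 and KO 4 only, 1602 genes were lower, 2 replacement genes lower, and the clustered and replacement medians were 0.028 and −0.42. With TMM scaling, 328 genes were higher and 1376 lower, 2 clustered genes higher and 2 replacement genes lower. Among libraries of both sexes, 8464 genes were higher and 2385 lower, 26 clustered genes higher, 5 replacement genes higher and 1 lower, and the medians were 1.11 and 0.74. The KO over Het mean of replacement sums was 1.57 with summed normalized counts, against 1.27 as a share of reads.

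These log2 fold changes changed sign against KO 3 and KO 4 only: Hist1h1d −0.15, Hist1h1t 0.048, Hist2h2ac −0.27, Hist3h2a −0.11, Hist1h2be −0.039, Hist1h2bg −0.052, Hist1h3f −0.077, H1f0 −0.013, H2afj −0.45, H2afv −0.19, H2afy −0.80, H2afy2 −0.59, H2afz −0.25, H3f3a −0.40, Npat −0.039 and Cenpa 0.038. Against KO 1 and KO 2 only they were Hist1h2bh 0.20, Hist1h3e 0.24, H1fx 0.30 and H2afx 0.31, and among libraries of both sexes 0.075, 0.28, 0.27 and 0.32. H2afj, H2afy, H2afy2 and H3f3a were −0.082, −0.21, −0.080 and −0.088 with TMM scaling, −0.029, −0.16, −0.028 and −0.035 in RPM, −0.10, −0.24, −0.10 and −0.11 at a minimum mean of 200 with its TMM factors, and −0.074, −0.19, −0.085 and −0.10 by edgeR. With 1 library left out, the range was −0.50 to 0.21 in Hist1h2bh, −0.30 to 0.22 in Hist1h3e, −0.087 to 0.41 in Hist1h3f, −0.075 to 0.47 in H2afj, −0.31 to 0.31 in H2afy, −0.12 to 0.43 in H2afy2 and −0.10 to 0.37 in H3f3a.

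The replicate numbers did not pair the libraries: deviations of same-numbered libraries correlated at −0.283, 0.266, −0.554 and 0.629. With the replicate number as a block, 1 clustered gene was called higher and 1 lower, Hist1h2al (limma adjusted p = 0.0020). The splits of KO libraries under TMM scaling, the within-library ratios and the groupings by annotated end were chosen after seeing the data. Low counts limit genes near the minimum mean.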
